A study of Mus musculus with 30 samples.

Results

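The difference between the pre-pro B and the pre-B stage in cells heterozygous for the G158R allele of Ikzf3, the gene of the transcription factor Aiolos, was read from the 3 RNA libraries of each stage, 6 of the 18 RNA libraries and of 30 samples in the study. Members were taken by the labels alone, as the libraries of the heterozygous genotype at each stage. The mice were C57BL/6, and the groups carried Ikzf3+/m (het), Ikzf3+/+ (wild type, WT) or Ikzf3m/m (homo). No other allele or treatment is given for any group. Cells were sorted from bone marrow, all as IgM- cells with B220+ and AA4.1+ staining. The pre-pro B gate took those that were CD24- and CD43+, and the pre-B gate those that were CD24+ and CD43-. The labels do not say whether the 3 libraries of a group came from separate mice, so p-values measure the spread between these libraries.

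Aiolos and its relative Ikaros are zinc finger proteins that bind DNA as dimers with each other, at sites that share a GGGAA core. Aiolos rises as B cell precursors pass from the pre-pro B stage, where several lineages are still open, to the pre-B stage, where the immunoglobulin heavy chain has been rearranged and the pre-B cell receptor is tested. Pax5 and Ebf1 fix the B lineage in that interval. A zinc finger change can alter the sites that a dimer of Aiolos and Ikaros binds, and het cells carry a normal and an altered copy of the gene.

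The het libraries held 4265056 to 8771793 counts on genes, and all 18 libraries 1888871 to 9048055, the lowest being homo pre-B replicate 3. Of 24459 genes, 12440 passed the filter on low counts. Levels are given as CPM, counts scaled to library size, after TMM normalisation, and stage differences as log2 fold changes of pre-B over pre-pro B with their standard error (SE, 3 libraries a group). A gene was called where the adjusted p of edgeR's quasi-likelihood test was under 0.05. Counts of very abundant genes levelled off: Actb, the beta-actin gene, had 2009 to 2650 counts in the 6 het libraries, so its CPM was lower in the deeper libraries. Replicate 2 of both het stages came from XY cells, and the other het libraries and all WT libraries from XX cells. Without the XY libraries, 4034 genes rose and 4553 fell in het.

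From pre-pro B to pre-B in het cells, 8477 genes were called, 68.1% of those tested. Of all genes tested 4025 rose, 32.4%, and 4452 fell, 35.8%. With a log2 fold change of at least 1 in size also required, 1636 rose (13.2%) and 2664 fell (21.4%). The libraries of the 2 stages did not overlap for 8649 genes (69.5%).

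Pax5, the factor that commits cells to the B lineage, stood at 14.2, 11.5 and 8.84 CPM in the het pre-pro B libraries and at 180.3, 189 and 179 CPM in the het pre-B libraries. The stages were far apart, and the rise was 16.2-fold (log2 4.02 ± 0.17 SE, edgeR adjusted p = 8.47e-13). In WT cells Pax5 went from 12.2, 8.49 and 12.5 CPM to 208, 213 and 201 CPM. Each het pre-B library lay below each WT pre-B library, but the stage differences of het and WT did not pass the test of their difference (log2 -0.21 ± 0.24 SE, edgeR adjusted p = 0.72).

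The mutated gene rose with it. Ikzf3 was at 21.9, 24.4 and 25.1 CPM in het pre-pro B cells and at 518, 606 and 498 CPM in het pre-B cells, a 22.6-fold rise (log2 4.50 ± 0.14 SE, edgeR adjusted p = 1.09e-14). In WT it went from 13.5, 15.3 and 18.4 CPM to 548, 551 and 519 CPM. The het pre-pro B libraries lay above the WT ones and the pre-B libraries overlapped, and the difference between the stage changes missed the threshold (log2 -0.59 ± 0.18 SE, edgeR adjusted p = 0.0698). Gene counts do not separate the 2 alleles, so these levels are of normal and mutant transcript together.

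The other Ikaros family genes moved in both directions. Ikzf2, which encodes Helios, fell from a mean of 93.2 CPM to 1.45 CPM in het (log2 -6.05 ± 0.24 SE, edgeR adjusted p = 4.45e-13). Ikzf1, which encodes Ikaros, rose from 607 to 847 CPM (log2 0.48 ± 0.15 SE, edgeR adjusted p = 0.00853). Its WT change of log2 0.21 was not called, but the difference between the genotypes was not called either (edgeR adjusted p = 0.577). Ikzf1 had 3123 to 5414 counts in the het libraries, more than Actb, whose counts levelled off. Het pre-pro B replicates 2 and 3, at 8771793 and 8395882 counts on genes, were deeper than every het pre-B library. How far levelling of counts enters this small rise was not tested. Ikzf5 rose 1.48-fold, and Ikzf4 did not pass the filter on low counts.

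The rule for the largest rises named Gh, Klhl14, Fam189a1, Rbm24, Zfp354b, Il5ra, Col5a3, Cpm, Pgm5 and Islr2. Klhl14, a substrate adaptor of a ubiquitin ligase that is expressed in B cells, had 3 counts over the het pre-pro B libraries and 72.8, 106 and 76.3 CPM in het pre-B, a pooled ratio of 603 with a 95% counting interval of 206 to 2927. Cpm, which encodes the membrane enzyme carboxypeptidase M, went from 3.5, 2.44 and 2.59 CPM to 531, 609 and 496 CPM, a 198-fold rise. Its groups did not overlap in any genotype, and its WT rise was 184-fold. Il5ra, the interleukin 5 receptor chain, had 3 counts at the pre-pro B stage and a mean of 32.5 CPM at the pre-B stage. Col5a3, a fibrillar collagen chain, rose from a mean of 0.155 to 40.3 CPM in het, beside 0.989 to 422 CPM in WT, and the difference was not called (edgeR adjusted p = 0.805).

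Of the 10 largest falls, 9 ended at 0 counts over the het pre-B libraries, namely Adam11, Chdh, Ptprf, Ddr1, Clec10a, Rtn4rl1, Gpr162, Klra17 and Klk1. Chdh, the choline dehydrogenase gene, was at 567, 506 and 551 CPM in het pre-pro B cells, at least 3102-fold higher than in het pre-B cells, with 3 counts over the group taken as the limit that 0 counts allow. By the same limit Ptprf, a receptor tyrosine phosphatase gene, was at least 2965-fold higher and Ddr1, a collagen receptor gene, at least 1883-fold higher. Runx2, the osteoblast and plasmacytoid dendritic cell factor, fell from 1387, 949.5 and 934 CPM to 0.156, 0.493 and 0.29 CPM. Klra17 is a member of a family of near-identical genes, and its count depends on how shared reads were treated.

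B lineage genes came first among the lists by the share that rose, apart from the cell cycle genes. Over all genes tested 32.4% rose and 35.8% fell, which is the base for the list counts that follow. Of 20 B lineage transcription factors, 17 rose and 2 fell in het, with a median log2 fold change of 1.23 against -0.03 over all genes tested. Ebf1, which acts with Pax5, rose from 51.4, 45.7 and 24.8 CPM to 730.0, 938 and 643 CPM. Bach2 rose from a mean of 97.8 to 1003 CPM, Irf4 from 80.1 to 709.8 CPM and Foxo1, which drives the recombinase genes, from 163 to 584 CPM. Bcl11a fell from 661 to 116 CPM, and Mef2c was the other that fell. None of these 20 genes had a called difference from WT, where 17 also rose and 2 fell.

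Of 15 genes of V(D)J recombination and end joining, 10 rose and 2 fell. Rag1, the catalytic chain of the recombinase, went from 113, 104 and 65.7 CPM to 1139, 1386 and 1135 CPM, a 13-fold rise. Rag2, its partner, rose 11.5-fold and the ligase gene Lig4 rose 11.8-fold. Dntt, the terminal transferase that adds bases at heavy chain joints, fell from a mean of 244 to 45.3 CPM. Polm, the polymerase mu gene, was the one member whose stage change differed from WT. It went from 33.7, 22.3 and 30.9 CPM to 99.6, 65.4 and 83.2 CPM in het and reached 299, 295 and 268 CPM in WT pre-B, so the WT pre-B libraries stood above every het library. The het rise was smaller by log2 -1.49 ± 0.25 SE (edgeR adjusted p = 0.00121).

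Of 20 genes of the pre-B cell receptor and its signalling, 12 rose and 4 fell. Cd79a, the signalling chain of the receptor, went from a mean of 22.4 to 138 CPM, and Vpreb3 from 15.6 to 152 CPM. Vpreb1, a surrogate light chain gene, was at a mean of 14 CPM before and 17.8 CPM after in het and was not called. In WT, Vpreb1 went from 15.8, 15 and 17.8 CPM to 34.4, 33.3 and 32.7 CPM. Each WT pre-B library was above each het pre-B library, at 14.2, 15.5 and 23.8 CPM. None of the 20 genes had a stage change called as lower in het than in WT. The near-identical relative Vpreb2 may share reads of Vpreb1. Fyn, a Src family kinase, fell from 528 to 122 CPM in het and from 604 to 85 CPM in WT, a smaller fall in het (edgeR adjusted p = 0.0165) whose call was lost without WT pre-B replicate 2 (edgeR adjusted p = 0.0512).

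Genes of earlier and other lineages fell. Of 16 stem and multipotent progenitor genes tested, 13 fell and 2 rose, with a median of -3.38. Flt3, the receptor of multipotent progenitors, went from 472, 403 and 402 CPM to 0.779, 0.74 and 1.6 CPM, a 383-fold fall. Erg, an ETS factor of stem cells, went the other way and is described with the differences from WT. Of 20 markers of plasmacytoid dendritic cells, 18 fell and 1 rose, with a median of -4.92. Siglech, a surface lectin of those cells, fell from a mean of 603 to 0.916 CPM, and Irf8 and Tcf4, which B cell precursors also express, fell to 207 and 359 CPM. Of 15 Toll-like receptors and adaptors, 12 fell and 2 rose, and of 22 interferon-induced genes 15 fell and 5 rose. Over all genes tested, 35.8% fell and 32.4% rose. In bulk libraries, fewer cells of a type and less RNA per cell cannot be told apart.

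The pre-pro B gate held RNA of other lineages in every library. The 20 plasmacytoid dendritic cell markers summed to 7952 to 11413 CPM in het pre-pro B libraries and to 1807 to 2130 CPM in het pre-B libraries, with Klk1 at 0 counts in the latter. The 18 markers of NK and innate lymphoid cells summed to 247 to 393 CPM in het pre-pro B libraries, against 137 to 151 CPM in WT ones, and to 16.4 to 26.9 CPM in het pre-B libraries, where Gzmb, Klre1, Ccl5 and Xcl1 were at 0. All 17 tested members of that list fell in het and 12 in WT. A gene could pass the filter on low counts through any group. Gzmb, for instance, had 0, 2 and 4 counts in WT pre-pro B libraries and 45, 209 and 147 in het ones. A fall of such a member could hardly be called in WT, so the counts of falls do not compare the genotypes. The median of the list was -6.78 in het and -4.26 in WT, or -5.49 and -3.30 with members at 0 counts set to their limits. The part of this difference in starting level in the stage differences between het and WT was not tested. Myeloid markers summed to 109.6 to 205 CPM before and 89.3 to 97.9 CPM after, with 10 of 13 tested members falling in het, and Elane, Prtn3, Ctsg, Ltf and Fcnb at 0 in het pre-B. T lineage markers summed to 783 to 975 CPM and then to 129.5 to 138 CPM, with 16 of 17 falling. The haemoglobin genes Hba-a1, Hba-a2, Hbb-bs and Hbb-bt were at 0 in all het libraries.

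Of the genes of the sort antigens, Spn and Cd24a changed in the direction of the gates. Spn, which encodes CD43, went from 479, 383 and 375 CPM to 73.7, 65.9 and 84.8 CPM in het. WT pre-B libraries kept 159, 157 and 160.3 CPM, above each het pre-B library. Cd24a rose from 99.7, 93.2 and 76.9 CPM to 315, 464 and 299 CPM. Cd93, which encodes AA4.1, rose by log2 2.0 ± 0.14 SE, although both gates took AA4.1+ cells. Ptprc, which encodes B220, was not called (edgeR adjusted p = 0.227).

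Proliferation genes rose at this transition. Of 30 genes of S phase and mitosis, 29 rose in het and none fell, with a median of 1.32. Mki67, the proliferation marker, went from a mean of 721 to 2036 CPM, Ccnb1, the mitotic cyclin, from 15.8 to 62.5 CPM, and the thymidine kinase gene Tk1 was the one not called. Ccnd1, the cyclin D1 gene, went the opposite way, from 544, 434 and 417 CPM to 7.01, 6.41 and 4.94 CPM, a 76.3-fold fall. The same 29 of 30 counts stood in WT with a median of 2.14. The summed level of the list was 8175 to 10063 CPM in het pre-B and 7764 to 8270 CPM in WT pre-B libraries, but 3245 to 4143 CPM in het pre-pro B against 1692 to 2913 CPM in WT pre-pro B.

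For 5 of these genes, Cdk1, Ccne1, Aurka, Birc5 and Cenpa, the rise was called as smaller in het. Of all genes tested, 3.80% had a lower stage change in het than in WT. Ccne1, the cyclin that opens S phase, went from 17.3, 26.7 and 19.9 CPM to 58.8, 52 and 57.2 CPM in het, and from 9.58, 9.32 and 13.5 CPM to 56.1, 61.3 and 60.4 CPM in WT. The pre-B libraries of both genotypes overlapped, while the het pre-pro B libraries lay above the WT ones. Its difference of log2 -1.07 ± 0.23 SE held in all 23 alternatives. Those of Aurka, Birc5, Cdk1 and Cenpa missed the threshold in 12, 11, 8 and 4 alternatives, and without het pre-pro B replicate 2, one of the XY libraries, their edgeR adjusted p values were 0.15, 0.117, 0.0918 and 0.0551. Cenpa also missed it without WT pre-pro B replicate 1 or 2, and Cdk1 without WT pre-pro B replicate 1, any WT pre-B replicate or het pre-B replicate 1. Aurka and Birc5 missed it without WT pre-pro B replicate 1 or 2, any WT pre-B replicate or het pre-B replicate 1 or 3, and Birc5 also without het pre-pro B replicate 1.

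Signalling and adhesion lists were mixed. The 15 genes of IL-7 receptor and JAK-STAT signalling split into 8 that rose and 7 that fell. Il7r itself rose from a mean of 307 to 586 CPM, and Socs2, a feedback inhibitor, from 4.72 to 36.9 CPM. Of 22 integrin, cadherin and focal adhesion genes, 16 fell and 3 rose. Cdh1, the E-cadherin gene, fell from 290 CPM to 3 counts over the het pre-B libraries, Itgb7 fell from 328 to 1.45 CPM, and Itga6 rose from 13.1 to 145 CPM. Among 8 catenins tested 3 rose and 3 fell, 37.5% each, near the 32.4% and 35.8% of all genes tested. Arhgef10, a guanine exchange factor gene, fell 214-fold in het, from 183, 160.3 and 185 CPM to 0.935, 0.247 and 1.02 CPM.

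**Figure D1:**
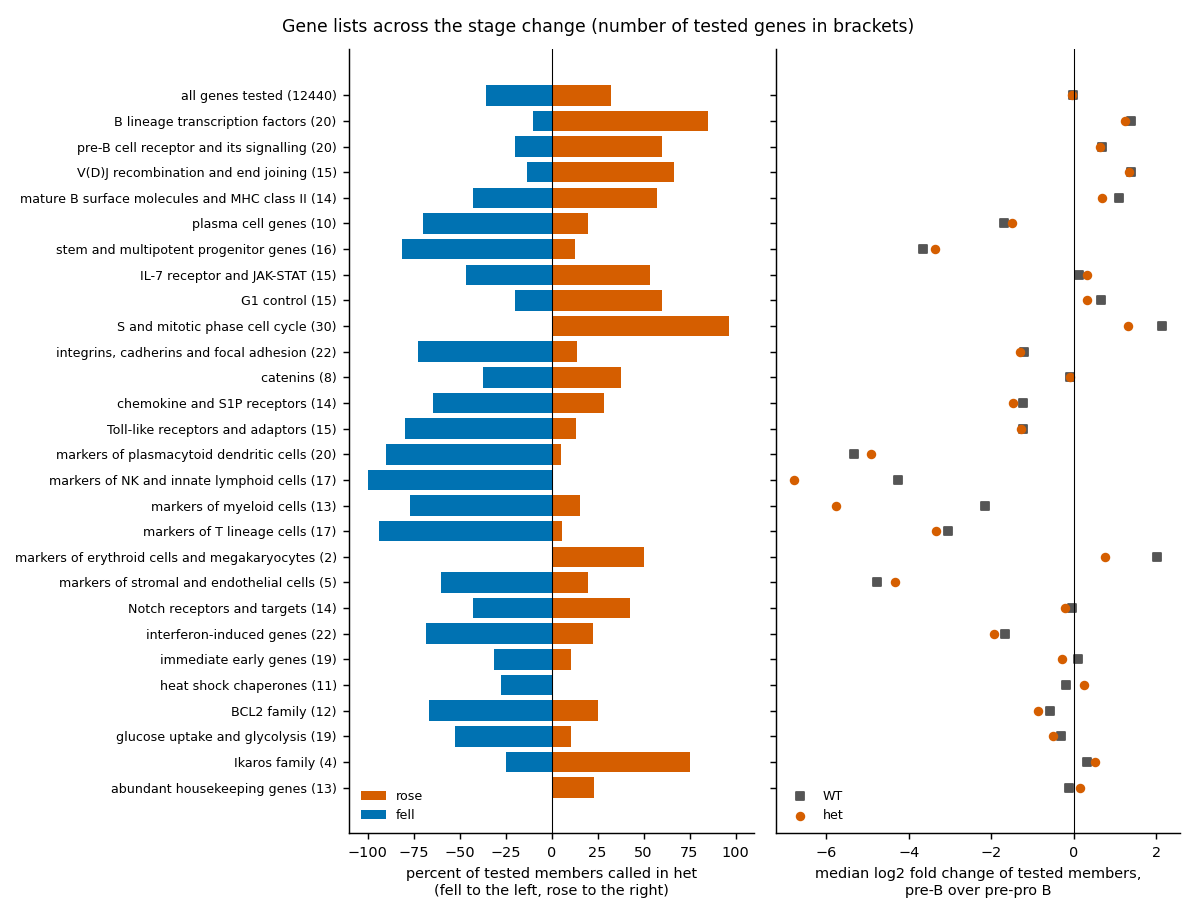
Each row is a gene list with its number of tested genes. The left panel gives the percent of tested members called as fallen (left of 0) or risen (right of 0) in het, and the right panel the median fitted log2 fold change of pre-B over pre-pro B in WT (squares) and het (circles). The B lineage transcription factor list stands at 17 of 20 risen and the plasmacytoid dendritic cell marker list at 18 of 20 fallen. Several lists include members at 0 counts, whose fitted values are not bounds. Limits in their place change the medians of the NK, myeloid and T lineage marker lists.

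Most stage changes of WT cells were present in het cells. In WT 3851 genes rose (31.0%) and 4146 fell (33.3%), or 1776 (14.3%) and 2445 (19.7%) with a log2 fold change of at least 1. In homo 8594 were called (69.1%), 4063 as rises (32.7%) and 4531 as falls (36.4%), of which 1590 (12.8%) and 2726 (21.9%) reached a log2 fold change of 1. Of these 7997 genes, 6977 were called in the same direction in het, which is 87.2% of the WT changes and 82.3% of the het changes. They comprised 3279 rises and 3698 falls. For 6533 of them the stage difference of het and WT was not called as different. Across all genes tested the log2 fold changes of the 2 genotypes had a Pearson r of 0.932, where genes are not independent replicates. The median size of change over the WT changes was log2 1.07 in WT and 0.999 in het, and 3587 of 7997 were larger in het.

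The test of the difference itself, the het stage change minus the WT stage change, called 230 genes as higher in het (1.85%) and 473 as lower (3.80%), together 5.65%. With a log2 difference of at least 1, 124 were higher (0.997%) and 342 lower (2.75%). Within these 703 genes, 102 WT changes were lost, meaning called in WT and not in het with a called difference: 58 rises and 44 falls. Another 42 turned, 35 from a WT rise to a het fall and 7 from a WT fall to a het rise. A further 115 were gained, 89 falls and 26 rises. The remaining genes changed the same way in both, 229 by more and 215 by less in het. Outside the 703, 876 WT changes were not called in het and 1343 het changes not called in WT without a called difference, so these are not shown to differ.

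These counts move with the libraries used. Without homo pre-B replicate 3, which enters through the filter, scaling and spread shared by all libraries, 401 genes were higher and 760 lower. Without WT pre-B replicate 2 or het pre-pro B replicate 2 the higher count was 146 or 152, and without WT pre-pro B replicate 2 or WT pre-B replicate 1 the lower count was 306 or 315. With XX libraries alone the counts were 308 and 549.

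**Figure D2:**
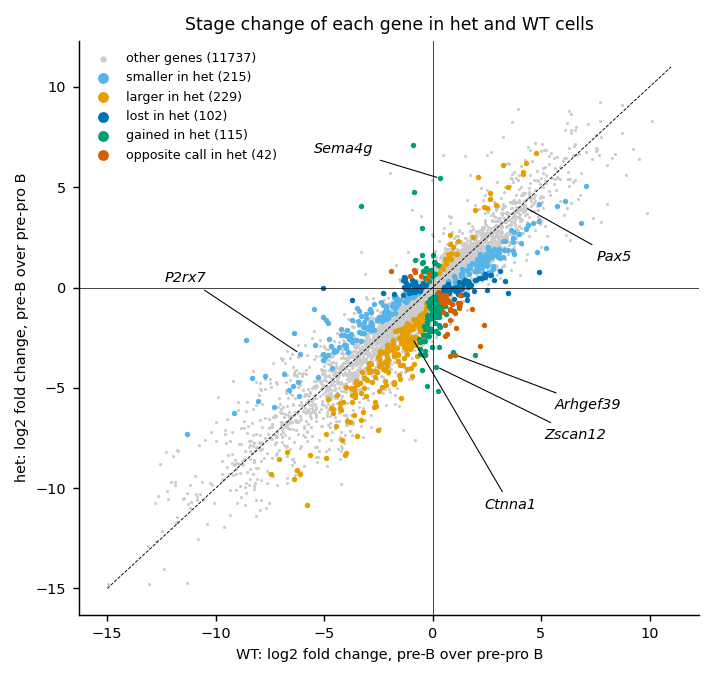
Each point is a gene, with its log2 fold change of pre-B over pre-pro B in WT on the x axis and in het on the y axis, and the genes with a called difference in colour. Most of the 12440 genes lie along the diagonal, Pax5 among them, while Ctnna1 and Arhgef39 lie below it.

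Arhgef39, a guanine exchange factor gene at chr4:43496139-43508747 (GRCm38.p6), turned. In WT it rose from 22.3, 18.5 and 32.1 CPM to 47.5, 49.6 and 52.5 CPM. In het it fell from 30.4, 48.3 and 29.9 CPM to 4.68, 3.21 and 2.76 CPM. The pre-pro B libraries of the 2 genotypes overlapped, and each het pre-B library was below all WT libraries of either stage. The het fall was 10.2-fold (log2 -3.35 ± 0.31 SE, edgeR adjusted p = 3.01e-08), the WT rise 2.05-fold, and the difference log2 -4.38 ± 0.39 SE (edgeR adjusted p = 2.74e-06). In homo it fell from 40.9, 44.4 and 41.8 CPM to 2.22, 6.02 and 1.8 CPM, and the het and homo stage changes did not differ by the test (log2 0.12 ± 0.48 SE, edgeR adjusted p = 0.999).

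Ctnna1, which encodes alpha-catenin, the link from cadherins to actin, fell in all 3 genotypes to different depths. The het libraries went from 294, 291 and 270.2 CPM to 51.4, 51.8 and 47.4 CPM, and the WT libraries from 288, 290.0 and 284 CPM to 145, 148 and 155 CPM. The homo pre-B libraries were at 24.3, 29.9 and 30.7 CPM. At the pre-pro B stage the genotypes were close, and at the pre-B stage the 3 groups were separate, in the order WT, het, homo. The het fall of 5.69-fold (log2 -2.51 ± 0.09 SE) exceeded that of WT by log2 -1.56 ± 0.12 SE (edgeR adjusted p = 8.11e-07) and was smaller than that of homo by log2 0.93 ± 0.12 SE (edgeR adjusted p = 0.00086).

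The other catenins did not share this pattern as a group. Ctnnd1, the p120 catenin gene, rose from a mean of 6.04 to 24.4 CPM in het and from 5.75 to 11.1 CPM in WT. That difference, log2 1.06 ± 0.30 SE, was at an edgeR adjusted p of 0.0485 and missed the threshold in 14 of 23 alternatives, among them 11 of the 12 that leave out 1 het or WT library, up to an edgeR adjusted p of 0.13 without WT pre-pro B replicate 2. Ctnnd2 fell from 81.4, 87.3 and 103 CPM to 0.156, 0.987 and 0 CPM, and it was at 0 in all WT pre-B libraries. Ctnnb1, which encodes beta-catenin, was at 361 and 374 CPM and was not called.

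Several genes fell in het where the WT change was not called. Zscan12, a zinc finger gene at chr13:21362820-21372302, was at 16.2, 15.6 and 16.7 CPM in het pre-pro B and at 0.779, 0.987 and 1.31 CPM in het pre-B. WT libraries were between 14.8 and 18.5 CPM at both stages. Only the mutant pre-B groups were low, and homo pre-B libraries were at 0.476, 0.617 and 0.601 CPM. The difference was log2 -4.12 ± 0.23 SE (edgeR adjusted p = 1.95e-08). Fam101a, Mrgpre, Ceacam1 and Gsdmd were further gained falls, with differences of log2 -5.40, -3.64, -2.96 and -2.15. Gsdmd encodes gasdermin D, the pore former of pyroptosis, and Ceacam1 an inhibitory adhesion receptor. Adam19, a metalloprotease gene, went from 452, 346 and 414 CPM to 221, 158.1 and 217 CPM in het, while WT stayed between 464 and 559 CPM.

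Of the 17 T lineage markers tested, 5 had a lower stage change in het than in WT and none a higher one, namely Thy1, Lck, Zap70, Tcf7 and Cd2. Over all genes tested, 3.80% were lower and 1.85% higher. Lck, the kinase of the T cell receptor, fell from 41.8, 62.2 and 50 CPM to 20.9, 15 and 24 CPM in het and was at 39.8, 25.3 and 39.4 CPM and then 40.6, 39.4 and 41.9 CPM in WT. The het pre-B libraries were the lowest of the 4 groups. Zap70, which acts after Lck, rose in WT from a mean of 3.73 to 8.38 CPM and fell in het from 8.75 to 5.13 CPM. The difference held in every alternative, but the het fall was lost in 4, for instance without het pre-pro B replicate 2 (edgeR adjusted p = 0.138), het pre-B replicate 1 (edgeR adjusted p = 0.0518) or het pre-B replicate 2 (edgeR adjusted p = 0.0631). Tcf7, a T lineage factor, fell in het from 11.3 to 4.55 CPM, and its difference from WT was lost without het pre-pro B replicate 2 (edgeR adjusted p = 0.0549). Cd2, which mouse pre-B cells also express, rose from a mean of 5.56 to 96.6 CPM in het and from 1.79 to 97.1 CPM in WT, and its difference was lost in 10 of 23 alternatives. All 5 had a higher mean in het than in WT pre-pro B cells, at 51.3 against 34.8 CPM for Lck and 8.75 against 3.73 CPM for Zap70. The summed NK and innate lymphoid markers were higher there too, as given above, and their part in these differences was not tested.

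Galnt10, a glycosyltransferase gene at chr11:57645442-57787514, turned like Arhgef39. It rose in WT from 58.2, 65.6 and 64 CPM to 93.3, 97.1 and 87.2 CPM and fell in het from 61.2, 71.1 and 65.3 CPM to 11.7, 7.4 and 17 CPM. The pre-pro B libraries of the 2 genotypes overlapped and the pre-B libraries did not. Its difference was log2 -2.97 ± 0.26 SE (edgeR adjusted p = 2.74e-06). Ripk3, the necroptosis kinase gene, and Pogk turned the same way, with differences of log2 -2.44 and -1.61. The het fall of Pogk was not called with the het libraries fitted alone (edgeR adjusted p = 0.0516).

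Falls shared with WT went further for Kcnk6, Psd4, Ndfip2, Prkar2b and Parp3. Psd4, an exchange factor for ARF6, went from 209.8, 221 and 214 CPM to 41.8, 39.5 and 45 CPM in het. WT went from 227, 222 and 226 CPM to 189, 167 and 168 CPM, so its decline was small and the het one 5.09-fold. The difference was log2 -1.98 ± 0.17 SE (edgeR adjusted p = 2.57e-06). Lmo2, a partner of stem cell factors, fell further by log2 -1.11 and the hexokinase gene Hk1 by log2 -1.03, and the interferon-induced Mx1 and Mx2 by log2 -2.0 and -1.89.

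The 58 WT rises that het cells lost had a median level of 46.1 CPM in WT pre-B cells and 23.6 CPM in het pre-B cells, and those with the largest WT fold, named here by rule, lay below that. Axin2, a target and inhibitor of the Wnt pathway, was at 0, 0.166 and 0.467 CPM in WT pre-pro B and at 7.03, 7.7 and 7.25 CPM in WT pre-B. In het it was at 0.875, 1.33 and 0.707 CPM and then at 1.25, 1.48 and 2.32 CPM. The WT pre-B libraries stood above all het libraries, and the het change was not called (log2 0.78 ± 0.44 SE, edgeR adjusted p = 0.127). The difference was log2 -4.13 ± 0.74 SE (edgeR adjusted p = 0.00218). Krt222 went from 0.939, 0.333 and 0.623 CPM to 7.51, 6.09 and 7.41 CPM in WT, and het pre-B libraries were at 1.09, 1.23 and 0.29 CPM. Ctdspl, a phosphatase gene, and Arc, an immediate early gene, were further lost rises, with WT means of 19.6 and 17.9 CPM at the pre-B stage against 6.02 and 4.30 CPM in het. The difference of Arc missed the threshold without het pre-pro B replicate 2 (edgeR adjusted p = 0.0815).

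On the other side, some WT falls were lost or turned. Trio, a guanine exchange factor gene, fell in WT from 199, 217 and 215 CPM to 105, 101 and 80.6 CPM. It was at 208, 208 and 227 CPM and then at 234, 218 and 251 CPM in het, where the change was not called (edgeR adjusted p = 0.254). Ski, a repressor of TGF-beta signalling, and Pcnx were lost falls of the same kind, with het means of 95.5 and 93.2 CPM for Ski at the 2 stages against 95.4 and 39.3 CPM in WT. Chd7, a chromatin remodeller gene, turned upward: 87.5, 91.6 and 96.4 CPM became 178, 166 and 167 CPM in het, while 81.7, 85.6 and 70.5 CPM became 47, 43.5 and 40.3 CPM in WT. At the pre-B stage the genotypes were far apart, and the difference was log2 1.75 ± 0.16 SE (edgeR adjusted p = 2.74e-06).

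Falls that were smaller in het left more transcript at the pre-B stage. P2rx7, the ATP-gated channel gene, went from 144, 146 and 164 CPM to 18.4, 13.8 and 13.5 CPM in het and from 156, 173 and 166 CPM to 3.04, 1.79 and 2.26 CPM in WT. It fell 9.88-fold and 68.9-fold, and the difference was log2 2.80 ± 0.23 SE (edgeR adjusted p = 2.05e-06). Asph fell to 76.2, 78.4 and 70 CPM in het and to 16.1, 19 and 13.1 CPM in WT from like starting levels. Cybb, the phagocyte oxidase gene, kept a mean of 274 CPM in het pre-B and 86.2 CPM in WT pre-B. Of the adhesion list, Itgb3, an integrin chain, and Ptk2, the focal adhesion kinase, fell less in het, by log2 0.95 and 1.11, and each call was lost without 1 library, WT pre-B replicate 3 for Itgb3 (edgeR adjusted p = 0.0549) and WT pre-B replicate 2 for Ptk2 (edgeR adjusted p = 0.0537).

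Rises that were gained or larger in het included receptors and 2 regulators. Sema4g, a semaphorin gene, was at 0.656, 2.66 and 2.48 CPM in het pre-pro B and at 121, 63.4 and 94.6 CPM in het pre-B, and no WT library was above 2.56 CPM. It rose 43.4-fold in het (log2 5.44 ± 0.34 SE), with a difference of log2 5.08 ± 0.74 SE (edgeR adjusted p = 0.000401). Il9r, the interleukin 9 receptor gene, went from 1.09, 0.665 and 0.589 CPM to 26.3, 12.3 and 20.5 CPM in het and stayed under 1 CPM in WT. Fcrl6, an Fc receptor-like gene, reached 110.5, 98.9 and 63.9 CPM in het pre-B against 15.5, 13.4 and 14.8 CPM in WT pre-B.

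Prdm1, which encodes Blimp-1, the repressor that drives plasma cell differentiation, rose from 4.59, 4.32 and 5.42 CPM to 113, 127 and 134 CPM in het and from 1.5, 2.33 and 3.11 CPM to 15.8, 15.4 and 13.4 CPM in WT. Each het pre-B library was above each WT one, and the het rise was larger by log2 2.05 ± 0.39 SE (edgeR adjusted p = 0.00355). The plasma cell list did not rise with it: 7 of 10 members fell in het and 2 rose, with a median of -1.50. Erg went from 30.4, 26.2 and 14.5 CPM to 135, 168 and 128 CPM in het and from 28.2, 21.3 and 35 CPM to 51.8, 43 and 55.1 CPM in WT. Its het rise was larger by log2 1.80 ± 0.32 SE (edgeR adjusted p = 0.00211).

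**Figure D3:**
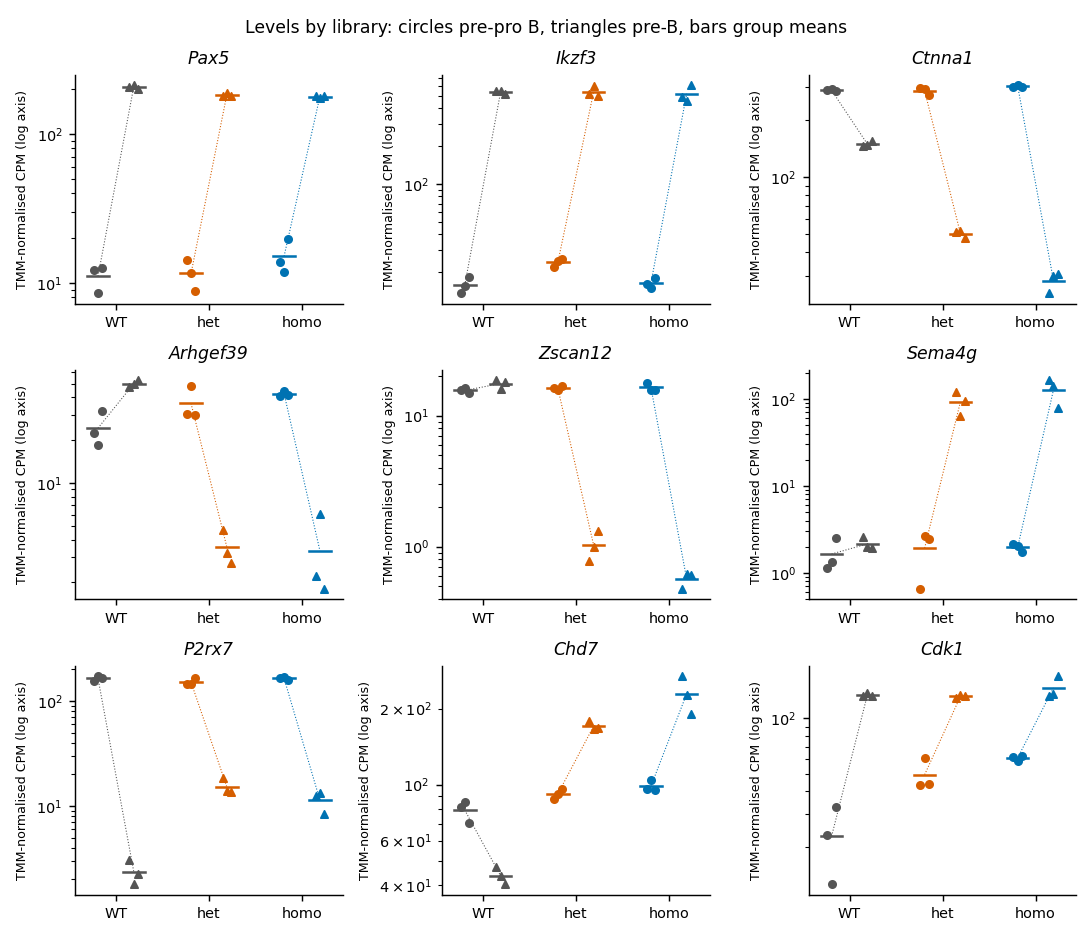
TMM-normalised CPM on log axes for 9 genes, by genotype, with circles for pre-pro B libraries, triangles for pre-B libraries and bars for group means. Pax5 and Ikzf3 rise in all genotypes. Arhgef39, Zscan12 and Ctnna1 are lower in het and homo than in WT pre-B cells, and Sema4g, P2rx7 and Chd7 are higher there. Cdk1 differs at the pre-pro B stage.

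**Figure D4:**
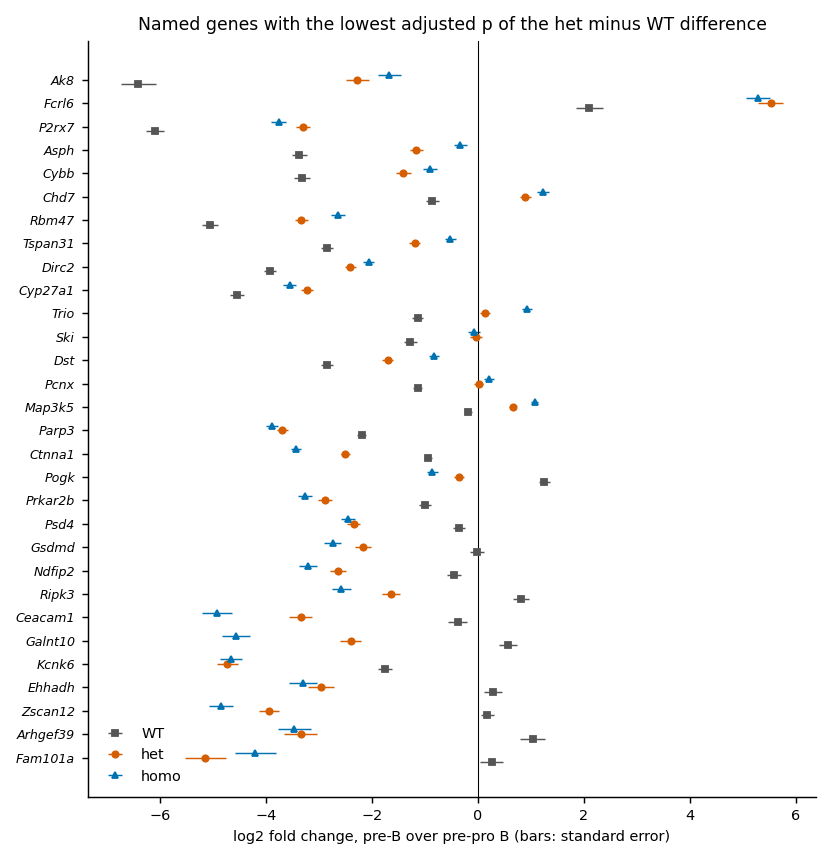
Log2 fold changes of pre-B over pre-pro B with standard errors for 30 named genes with the lowest adjusted p of the difference between het and WT, in WT, het and homo. For Arhgef39 the WT value is 1.03 and the het and homo values are -3.35 and -3.47.

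Most of the difference between het and WT stage changes lay at the pre-B stage. For 621 of the 703 genes the levels of het and WT differed more at the pre-B stage than at the pre-pro B stage, and for 82 the reverse held. The median size of the level difference was 1.04 at pre-B and 0.162 at pre-pro B on the scale of log2(CPM + 0.5). Because the genes were selected by the same libraries, these are descriptions. The 197 genes that fell further had median levels of 60.8 CPM in WT and 60.3 CPM in het pre-pro B cells, and of 14.6 CPM in WT and 5.58 CPM in het pre-B cells. The 121 that fell less ended at 9.79 CPM in WT and 20.9 CPM in het. The 94 that rose less had medians that were already apart at the pre-pro B stage, 15.9 CPM in WT and 28.9 CPM in het, and of 98.5 and 79.3 CPM at the pre-B stage. Homo libraries entered that selection only through the shared filter, scaling and spread. Their median pre-B level was 4.50 CPM for the genes that fell further and 25.5 CPM for those that fell less.

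**Figure D5:**
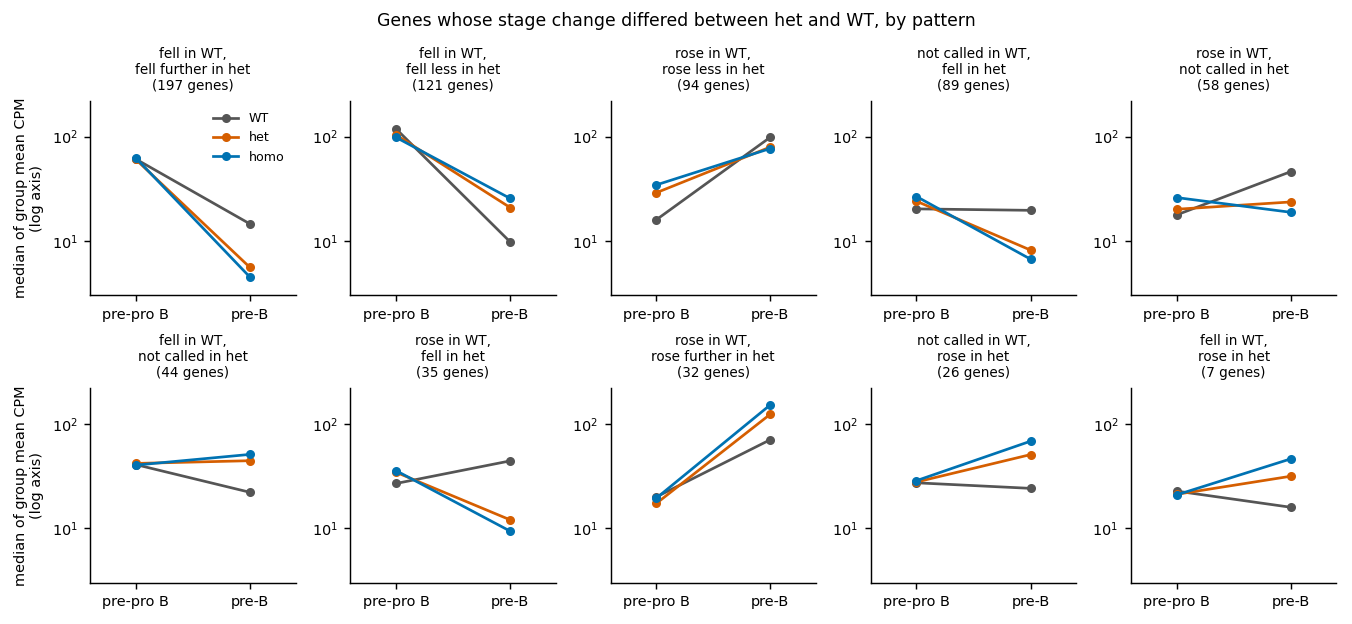
Median CPM (log axis) at the pre-pro B and pre-B stages in WT, het and homo for the genes with a called difference between het and WT, 1 panel for each pattern with its number of genes. In most panels the lines start close together and part at the pre-B stage, as for the 197 genes that fell further, with medians of 14.6 CPM in WT and 5.58 CPM in het. In the panel of 94 genes that rose less the lines already differ at the pre-pro B stage.

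Few genes had het and homo stage changes that were called as different. The het stage change minus the homo stage change was called as higher for 107 genes (0.860%) and lower for 74 (0.595%), together 181 (1.45%). With a log2 difference of at least 1, 67 were higher (0.539%) and 58 lower (0.466%). This comparison and the one with WT share the het libraries. Without homo pre-B replicate 3, the library with the fewest counts, 144 genes were higher and 100 lower. Leaving out 1 library took the first count as low as 60, without het pre-B replicate 1, to 61 without homo pre-pro B replicate 1 or 3 and to 67 without het pre-pro B replicate 1 or 3. The second went as low as 43, without het pre-pro B replicate 3 or homo pre-pro B replicate 2, and to 45, 49, 46, 48 and 49 without het pre-B replicates 1 and 3, homo pre-pro B replicates 1 and 3 and homo pre-B replicate 2.

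Slc36a1, an amino acid transporter gene, went from 92.7, 101 and 103 CPM to 32.6, 26.9 and 32.7 CPM in het. WT pre-B libraries were at 58.3, 67.7 and 69.6 CPM and homo pre-B libraries at 6.34, 9.26 and 10.8 CPM. The 3 pre-B groups were separate while all pre-pro B libraries were between 88.6 and 103 CPM. The het fall exceeded that of WT by log2 -1.17 ± 0.16 SE (edgeR adjusted p = 0.000255) and was smaller than that of homo by log2 1.86 ± 0.19 SE (edgeR adjusted p = 8.58e-05). Adam19 also lay between, with homo pre-B libraries at 42.6, 42.6 and 22.8 CPM and a difference from homo of log2 2.11 ± 0.22 SE (edgeR adjusted p = 0.00013).

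For Fcer2a, the low-affinity IgE receptor CD23 of B cells, het rose as WT did, but to a lower level. It rose from 0.875, 1.33 and 2.24 CPM to 9.51, 9.62 and 4.65 CPM in het and from 2.44, 2.83 and 2.02 CPM to 24.9, 21.3 and 16.6 CPM in WT, and it fell in homo from 2.27, 2.93 and 3.49 CPM to 0.476, 0.154 and 0 CPM. Each het pre-B library lay below each WT one, and the het and homo pre-B libraries were far apart. The difference between those 2 stage changes was log2 5.60 ± 0.69 SE (edgeR adjusted p = 0.000784), and that between het and WT was not called (log2 -0.81 ± 0.50 SE, edgeR adjusted p = 0.451). In the other direction, Trio stayed level in het but rose in homo to 400.4, 362 and 419 CPM.

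The regions bound by Ikaros and Aiolos were deposited for cultured WT and homo pre-B cells, 1 library each, with none for het cells. For genes that matched a RefSeq promoter, 9992 of 12440, a region of the authors' Ikaros lists lay within 1000 bases of the promoter window (250 bases before to 50 after the start) for 2.67% in WT and 9.32% in homo. Some symbols were matched through a synonym, and not all correctly. Cdh1, Ms4a1 and Kcnk6 were given the promoters of Fzr1, Ms4a2 and Kcnk7. How many other such matches enter the shares was not counted. The homo list was longer, with 8609 regions against 3683. Genes with a lower stage change in het had such a region for 3.47% in WT and 11.2% in homo, and those with a higher one for 2.67% and 8.56%. These pooled shares have no replicate and stand near those of all matched genes. Split by pattern, the homo shares were wider apart. They were 7 of 31 genes (22.6%) for WT rises that fell in het, the pattern of Arhgef39. Rises larger in het had 5 of 28 (17.9%), WT rises not called in het 8 of 46 (17.4%) and rises smaller in het 4 of 73 (5.48%). These sets are small, and the shares were not tested. Aiolos lists held 431 regions in WT and 24 in homo.

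Some of the 89 named genes with a called difference between het and WT matched no promoter, so no region could be assigned to them. Ctnna1, Chd7 and Asph were among these, and Kcnk6 was matched to the promoter of another gene. Of the 89 genes, 9 had an Ikaros region that close: Adam19, Arhgef39, Ccr6, Cdk1, Ctnnd1, Ndfip2, Polm, Sema4g and Slc36a1. Of these, the differences of Cdk1 and Ctnnd1 were lost without single libraries as given above, and that of Ccr6 without 9 of the 12 het and WT libraries, up to an edgeR adjusted p of 0.152 without het pre-B replicate 1. The windows of Arhgef39, Adam19 and Slc36a1 are shown because their genes turned, gained a fall, or fell to a depth between WT and homo. Capitals mark GGGAA or its reverse complement TTCCC, the core of Ikaros family sites, searched on both strands. They are RefSeq sequences of GRCm38.p6, at chr4:43508698-43508997 on the minus strand, chr11:46055734-46056033 on the plus strand and chr11:55204090-55204389 on the plus strand.
Arhgef39: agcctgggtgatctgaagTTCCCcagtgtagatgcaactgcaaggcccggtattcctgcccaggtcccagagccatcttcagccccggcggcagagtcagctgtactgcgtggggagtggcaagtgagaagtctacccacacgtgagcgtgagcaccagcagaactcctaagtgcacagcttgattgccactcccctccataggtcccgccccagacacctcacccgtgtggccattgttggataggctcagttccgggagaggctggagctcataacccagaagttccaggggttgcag
Adam19: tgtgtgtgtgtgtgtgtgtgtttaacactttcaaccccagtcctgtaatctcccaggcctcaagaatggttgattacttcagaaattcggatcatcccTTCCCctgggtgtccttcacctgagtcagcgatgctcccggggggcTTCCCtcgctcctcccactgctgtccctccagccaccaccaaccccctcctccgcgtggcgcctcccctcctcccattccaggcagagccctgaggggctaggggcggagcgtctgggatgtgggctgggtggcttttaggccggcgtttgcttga
Slc36a1: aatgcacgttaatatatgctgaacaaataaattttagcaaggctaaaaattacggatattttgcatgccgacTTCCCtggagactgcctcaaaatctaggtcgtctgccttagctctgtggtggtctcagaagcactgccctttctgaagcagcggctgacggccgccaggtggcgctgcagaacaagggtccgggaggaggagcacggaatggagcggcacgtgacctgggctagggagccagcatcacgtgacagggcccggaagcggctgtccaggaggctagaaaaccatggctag

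The Arhgef39 and Slc36a1 windows hold 1 TTCCC each and the Adam19 window 2. Of 32851 promoters, 62.7% hold the motif on either strand, so a match is common. The nearest Ikaros region of Arhgef39 lay 780 bases from the window in WT and 790 bases in homo, with the authors' fold enrichment of 3.49 and 4.20. That of Adam19 lay 213 and 120 bases away, with 6.46 and 8.11. At Slc36a1 a region of 983 bases overlapped the window in homo, with a fold enrichment of 8.49, and the WT list had none within 1000 bases.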

How the data were processed

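RNA was sequenced from poly(A) libraries of sorted bone marrow cells made with a NEBNext Ultra kit, per the labels' protocols. The deposited count files hold whole-number counts per gene symbol. The build mm10 and the tools MACS2 2.1.1, STAR 2.7.0 and HISAT2 2.1.0 are listed, without their roles, per the submitters' processing notes. The 5 entries that name no gene were left out, the largest, counts on no feature, being 29.8% to 40.1% of all counts in the 18 files. The authors' region files give a fold enrichment ratio, used here only to describe regions, and −log10 p and q values, not used further.

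Counts of all 18 RNA libraries were fitted together in R 4.3.3 with edgeR 4.0.16 (filterByExpr, TMM, robust quasi-likelihood test, Benjamini-Hochberg adjusted p under 0.05), 1 mean for each genotype and stage, so that the 6 groups share the spread (biological coefficient of variation 12.4%). Contrasts were pre-B minus pre-pro B in each genotype and the differences between genotypes. A group at 0 counts was given 3 counts as its limit, and intervals and limits cover counting error only. Code was tested on simulated data. Alternatives were DESeq2 1.42.0, RLE, other filters, other sample sets, a replicate block, depth and sex terms, other thresholds, and each library left out.

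The members and gene lists were chosen with earlier results of these data known. Named genes were the 3 marker genes and Ikaros family, the 10 largest rises and falls in het (at least 10 CPM), up to 4 members of each list, up to 15 differences from WT in each direction by adjusted p (at least 5 CPM), up to 10 lost and 10 gained changes and up to 6 differences from homo in each direction. Another 29 list members with a called difference were added after their values were seen, as were the homo levels given for Trio. All replicate pairs differed by more than sampling noise (chi-square per degree of freedom 1.44 or more). Thymus samples and 4 input samples were not used here, and a few genes and 1 gene list are not reported here.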

Additional observations from a re-analysis of the deposited data

Results flagged for a closer look

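The results below are named genes whose stage change, pre-B over pre-pro B, differed between 2 genotypes by the test of the difference itself in edgeR, with an adjusted p under 0.05 over all genes tested. The values are het minus WT, and later het minus homo, on the log2 scale. Of 89 named genes that differed between het and WT, 53 were lower and 36 higher in het.

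WT rises that were falls in het differed by log2 -4.38 for Arhgef39, -2.97 for Galnt10, -2.44 for Ripk3, -1.93 for Zap70 and -1.61 for Pogk. WT falls that were rises in het differed by log2 1.75 for Chd7 and 0.84 for Map3k5. WT rises with no call in het differed by log2 -4.13 for Axin2, -3.73 for Krt222, -3.01 for Plekhg1, -2.63 for Ctdspl, -2.48 for Arc, -2.27 for Sox5, -2.06 for Kcnk5, -1.99 for F13a1 and -1.55 for Klf4. WT falls with no call in het differed by log2 5.0 for Pamr1, 3.10 for Gpr34, 2.0 for Ccr6, 1.27 for Trio, 1.24 for Ski and 1.15 for Pcnx. Falls called in het and not in WT differed by log2 -5.40 for Fam101a, -5.34 for Ifng, -4.61 for 5730559C18Rik, -4.12 for Zscan12, -3.64 for Mrgpre, -3.23 for Ehhadh, -2.96 for Ceacam1, -2.15 for Gsdmd, -1.93 for Tcf7, -1.57 for Lck, -1.24 for Id2, -1.23 for Sdc1, -1.19 for Adam19 and -0.60 for Bak1. Rises called in het and not in WT differed by log2 8.03 for Shroom2, 7.33 for Ptn, 5.60 for Il9r and 5.08 for Sema4g.

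Of genes that fell in both genotypes, the fall was larger in het by a log2 of -4.32 for Thy1, -2.98 for Kcnk6, -2.20 for Ndfip2, -2.0 for Mx1, -1.98 for Psd4, -1.89 for Mx2, -1.89 for Prkar2b, -1.61 for Fos, -1.56 for Ctnna1, -1.50 for Parp3, -1.17 for Slc36a1, -1.11 for Lmo2, -1.03 for Hk1 and -0.72 for Rassf2. Falls that were smaller in het gave differences of log2 4.13 for Ak8, 2.80 for P2rx7, 2.39 for Cdc42bpb, 2.21 for Asph, 1.9 for Cybb, 1.73 for Rbm47, 1.66 for Tspan31, 1.54 for Slc2a6, 1.52 for Dirc2, 1.45 for Cox6a2, 1.36 for Lifr, 1.31 for Cyp27a1, 1.16 for Dst, 1.11 for Ptk2, 0.95 for Itgb3, 0.92 for Cd180, 0.74 for Arhgef6, 0.72 for Fyn and 0.61 for Xbp1. Rises that were larger in het differed by log2 3.42 for Fcrl6, 2.05 for Prdm1, 1.80 for Erg, 1.06 for Ctnnd1 and 0.54 for Arhgef3. Rises that were smaller in het differed by log2 -1.73 for Car2, -1.69 for Cd2, -1.49 for Polm, -1.14 for Cdk1, -1.13 for Aurka, -1.07 for Ccne1, -1.04 for Birc5, -0.94 for Ccr7, -0.92 for Tnfrsf13c, -0.86 for Cenpa and -0.75 for Slamf7.

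Between het and homo 28 named genes differed, and 16 of them also differed between het and WT. These 2 comparisons share the het libraries. The stage change was lower in het than in homo by log2 -5.54 for Chdh, -3.35 for Sntb1, -3.28 for Pls1, -2.40 for Hoxa9, -1.87 for Cdc42bpb, -1.85 for Flt3, -1.49 for Abcb1b, -0.87 for Dst, -0.83 for Asph, -0.83 for Utrn, -0.80 for Trio, -0.70 for Fyn, -0.67 for Tspan31 and -0.42 for Map3k5. It was higher in het than in homo by log2 5.60 for Fcer2a, 3.07 for Ccr6, 2.77 for Egr3, 2.44 for March1, 2.17 for Galnt10, 2.11 for Adam19, 1.86 for Slc36a1, 1.76 for Tnfrsf13c, 1.58 for Ceacam1, 1.56 for Tlr9, 1.30 for Plxnc1, 1.29 for Rassf2, 1.16 for Polm and 0.93 for Ctnna1. The fitted values of Chdh, Shroom2 and Ptn involve a group at 0 counts and give no size of effect. Others rest on a few counts in a group, so their size is uncertain. Among them are Ifng (1, 1 and 0 counts in het pre-B), Pamr1 (0, 1 and 0 in WT pre-B), 5730559C18Rik (1, 0 and 0 in het pre-B) and Thy1 (1, 0 and 1 in het pre-B).

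Some of these calls depend on the processing. Of the 89 differences from WT, 55 held in every alternative, of which each gene had 22 or 23. The others were lost in 1 for Arhgef6, Fyn, Itgb3, Ptk2, Shroom2 and Tcf7, in 2 for Fos, Lifr and Slamf7, in 3 for Arc, in 4 for Cenpa, Ptn and Slc2a6, in 5 for 5730559C18Rik and Cd180, in 8 for Cdk1, in 9 for F13a1, Gpr34, Id2, Sox5 and Tnfrsf13c, in 10 for Arhgef3, Cd2, Ifng and Kcnk5, in 11 for Birc5 and Ccr7, in 12 for Aurka and Klf4, in 13 for Bak1, Ccr6 and Sdc1, in 14 for Ctnnd1, in 18 for Plekhg1. Where leaving out 1 library lost the call, the highest edgeR adjusted p was reached without WT pre-B replicate 1 for 5730559C18Rik (0.0782), Fos (0.05004), Gpr34 (0.11), Ifng (0.12) and Lifr (0.0653), without WT pre-B replicate 2 for Fyn (0.0512) and Ptk2 (0.0537), without WT pre-B replicate 3 for Bak1 (0.142) and Itgb3 (0.0549), without WT pre-pro B replicate 1 for Cenpa (0.0607) and Ptn (0.0695), without WT pre-pro B replicate 2 for Arhgef3 (0.0883), Ctnnd1 (0.13), Sdc1 (0.113) and Slamf7 (0.0681), without WT pre-pro B replicate 3 for Shroom2 (0.131), without het pre-B replicate 1 for Ccr6 (0.152) and Id2 (0.104), without het pre-B replicate 3 for Slc2a6 (0.0818), without het pre-pro B replicate 1 for Plekhg1 (0.145), without het pre-pro B replicate 2 for Arc (0.0815), Aurka (0.15), Birc5 (0.117), Ccr7 (0.172), Cd180 (0.0633), Cd2 (0.154), Cdk1 (0.0918), F13a1 (0.172), Kcnk5 (0.114), Klf4 (0.132), Sox5 (0.154), Tcf7 (0.0549) and Tnfrsf13c (0.144).

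Of the 28 differences from homo, 17 held in all 21 alternatives. The others were lost in 4 for Chdh and Egr3, in 6 for Asph and Hoxa9, in 7 for Polm, in 8 for Tlr9, in 10 for Tspan31, in 12 for Ccr6 and Ceacam1, in 13 for Fyn and Map3k5. With 1 library left out, the highest edgeR adjusted p of a lost call was reached without het pre-B replicate 1 for Ceacam1 (0.173), Map3k5 (0.12), Polm (0.0903) and Tlr9 (0.0903), without het pre-pro B replicate 1 for Asph (0.0556), without homo pre-B replicate 1 for Chdh (0.0967) and Tspan31 (0.0738), without homo pre-B replicate 2 for Ccr6 (0.142) and Hoxa9 (0.229), without homo pre-pro B replicate 3 for Egr3 (0.109) and Fyn (0.122).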

How the results depend on the processing

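With a log2 fold of at least 1 also required, 1636 genes rose and 2664 fell in het, 1776 and 2445 in WT, and 3588 changed the same way in both. Leaving out 1 library gave 3676 to 4072 rises and 4204 to 4632 falls in het, and 6578 to 7052 shared changes. All other alternatives left these counts within 1.5 times.

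The counts of differing stage changes moved more. Higher in het than in WT were 357 genes with DESeq2, 412 with library size as a covariate, 124 with a log2 fold of at least 1, 109 at an adjusted p under 0.01, 401 without homo pre-B replicate 3, and 146 to 318 with 1 het or WT library left out. Lower were 211 at an adjusted p under 0.01, 760 without homo pre-B replicate 3, and 306 to 561 with 1 library left out. Higher in het than in homo were 161 with DESeq2, 43 with het and homo libraries only, 163 with library size as a covariate, 67 with a log2 fold of at least 1, 43 at an adjusted p under 0.01 and 60 to 144 with 1 library left out. Lower were 24 with het and homo libraries only, 47 with counts thinned to one depth, 25 at an adjusted p under 0.01 and 43 to 100 with 1 library left out. The cause of these shifts was not tested.

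With the replicate number as a block, 131 genes were higher and 264 lower in het than in WT, and 41 and 23 in het than in homo. No label ties the numbers to an animal, litter or day. Same-numbered libraries had correlations of deviations of 0.054, -0.00039 and -0.106 in het and 0.061, 0.059 and 0.106 in WT, where each library correlated best with its own number. In het and homo not every library did. Same-numbered libraries of both stages also had the same sex chromosomes in each genotype. These values do not settle whether the numbers mark pairs.

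Of 194 named genes called in het, 189 were called in every alternative, and of 89 called as different from WT, 55 were. Of 6403 values of named genes, 358 lost a call, 12 gained one and 20 changed sign. Those 20 belonged to stage changes not called in het. Arc was at -0.0070 to 0.87 with 1 library left out, Ctdspl at -0.24 to 0.038, Krt222 at -0.58 to 0.21 and 0.14 when thinned. Pamr1 was at -0.45 to 0.31, 0.051 with library size and 0.16 when thinned. Pcnx was at -0.043 to 0.067, -0.0062 with RLE, -0.0039 with DESeq2, -0.0079 with no filter and -0.0046 with het and WT libraries only. Ski was at -0.13 to 0.035, 0.031 with library size and 0.053 with XX libraries, where Plekhg1 was at -0.045. Using XX libraries only and leaving out homo pre-B replicate 3 were chosen after seeing the data.

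Depth limits genes near the filter, and counts of very abundant genes understate their range, as for Actb. Gapdh, a gene with many near-identical copies, was at 6.53 and 7.87 CPM in het. No label says how its shared reads were counted. No replicate bears on the Ikaros and Aiolos regions.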

Other observations

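Other lists of known function, not described above, split by member. Over all genes tested, 32.4% rose and 35.8% fell in het. Of 14 Notch receptors and targets tested, 6 rose and 6 fell in het, 42.9% each. Notch1 fell from a mean of 745 to 283 CPM and Notch2 from 521 to 126 CPM, while Dtx1, a Notch-induced ubiquitin ligase gene, rose from 1.13 to 103 CPM and Il2ra, which encodes CD25, from 10.8 to 406 CPM. Of 12 BCL2 family genes 8 fell and 3 rose. Bcl2 fell from 118 to 15 CPM and Bcl2l1, which encodes Bcl-xL, rose from 15.6 to 140.1 CPM. Of 14 chemokine and S1P receptor genes 9 fell and 4 rose: Ccr9 fell from 524 to 2.46 CPM, and Cxcr5 and S1pr1, receptors that guide B cells, rose to 27 and 78.8 CPM.

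Of 14 mature B cell surface and MHC class II genes, 8 rose and 6 fell. Ms4a1, which encodes CD20, rose from 0.795 to 127 CPM, and the class II genes H2-Aa and H2-Eb1 fell to 79.1 and 48.2 CPM. Of 19 genes of glucose uptake and glycolysis 10 fell and 2 rose, with Slc2a3, a glucose transporter gene, falling from 189 to 18.7 CPM and Slc16a1, a lactate transporter gene, rising from 21.5 to 335 CPM. Of 15 genes of G1 control 9 rose and 3 fell. Of 19 immediate early genes 6 fell (31.6%) and 2 rose (10.5%), and of 11 heat shock chaperone genes 3 fell (27.3%) and none rose. Neither share of falls was above the 35.8% of all genes tested.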
